A study of Mus musculus with 19 samples.

Results

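Transfer RNA genes are transcribed by RNA polymerase III (Pol III), and SOX3 occupancy at them was read from SOX3 ChIP-seq peak lists of wild-type mouse testis at postnatal day 7. The members were all nuclear genes of biotype tRNA in the RefSeq annotation of GRCm38, the assembly also called mm10. The annotation listed 445 such genes, of which 22 were mitochondrial and 20 lay on scaffolds that the peak lists do not cover, and the 403 others lay on 19 chromosomes. All 20 standard amino acids were represented, with 48 anticodons, and no selenocysteine tRNA gene carried this biotype.

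Both ChIP-seq replicates and both ChIP-nexus replicates used here came from whole testis and from antibodies to SOX3 (SCBT #sc-101155 and EMD Millipore #AB5772). In ChIP-nexus, the precipitated DNA is digested by an exonuclease up to the bound protein, which narrows the signal. No knockout or other control list was analysed here, and the 15 other labelled samples of the series were not used. For ChIP-seq there were 58351 peaks (replicate 1) and 38832 peaks (replicate 2), covering 62.9 Mb and 36.4 Mb. They hold no read counts, so the depth behind each peak is unknown. Because whole testis holds many cell types, strong occupancy in few cells and weak occupancy in many cannot be told apart.

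A tRNA gene carries its own promoter inside the transcribed part, as an A box and a B box. The factor TFIIIC recognises these boxes and recruits TFIIIB, which brings in Pol III, and transcription stops at a run of thymines just after the gene. Most amino acids are served by many gene copies, some identical in sequence, and these copies lie alone or in clusters. SOX3 is a transcription factor of the SOX family that contacts DNA through an HMG box, and it marks undifferentiated spermatogonia in the testis.

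The sequences below belong to genes under the strongest peaks, in the order of their mean score percentile over both lists. The set of rank 4 in that order, n-TYgta9 with n-TAagc15, is left out. The sequences shown are mature tRNAs, that is, the sense strand of the GRCm38 genome without the intron. The B box letters GTTCNANNC are in capitals. The genes were n-TEttc4 (glutamate, chr14:79481668-79481739, plus strand), n-TWcca2 (tryptophan, chr10:91181412-91181483, minus strand), n-TDgtc16 (aspartate, chr10:91182097-91182168, minus strand), n-TRtct2 (arginine, chr3:122292948-122293032, minus strand, with an intron), n-TScga2 (serine, chr10:128458464-128458545, minus strand), n-TTcgt3 (threonine, chr11:79704650-79704721, plus strand) and n-TIaat16 (isoleucine, chr7:28372999-28373093, plus strand, with an intron).
n-TEttc4: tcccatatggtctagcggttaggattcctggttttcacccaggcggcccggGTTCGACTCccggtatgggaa
n-TWcca2: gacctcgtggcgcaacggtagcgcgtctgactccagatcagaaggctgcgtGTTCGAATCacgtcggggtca
n-TDgtc16: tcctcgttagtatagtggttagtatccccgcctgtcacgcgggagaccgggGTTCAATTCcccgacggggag
n-TRtct2: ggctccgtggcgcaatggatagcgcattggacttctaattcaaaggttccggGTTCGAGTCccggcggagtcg
n-TScga2: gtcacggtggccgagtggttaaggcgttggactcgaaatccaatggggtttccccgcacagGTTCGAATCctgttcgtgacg
n-TTcgt3: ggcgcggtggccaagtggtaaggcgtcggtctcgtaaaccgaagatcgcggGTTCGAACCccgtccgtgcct
n-TIaat16: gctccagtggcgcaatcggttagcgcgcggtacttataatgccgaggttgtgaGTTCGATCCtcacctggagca

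The B box letters were found in 371 of the 403 mature sequences (92.1%). On the same strand of windows of the same length 1 kb to either side they occurred in 22 of 806 (2.73%), and on either strand in 38 of 806 (4.71%). In the set left out above, n-TYgta9 held the letters and n-TAagc15 did not. The match is a description of the letters only. A symbol can name another anticodon than the genome holds, as in n-TIaat16, whose sequence has the anticodon TAT, and this was so for 12 of the 403 genes. Anticodons here are those of the sequence.

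To ask how many tRNA genes SOX3 peaks covered, each gene was compared with each list, and a gene was called overlapped where it shared 1 bp or more with a peak. In replicate 1, 180 of 403 tRNA genes (44.7%) were overlapped, and in replicate 2, 143 (35.5%), a mean of 40.1% ± 6.49 (SD, n = 2). As background, 30.2% and 24.7% of the start sites of all 49195 other RefSeq genes lay in a peak. Over all positions of the same chromosomes outside assembly gaps, an interval of the gene's length would overlap a peak at 2.53% of positions in replicate 1 and 1.5% in replicate 2. The tRNA genes were thus overlapped 17.7 and 23.7 times as often as positions in general. This share is an exact count over positions, not a draw, and no test was made on the 2 replicates.

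In both replicates, 135 genes (33.5%) were overlapped, against 15.8% if the lists were independent over these genes and 23.4% of other RefSeq start sites. The exact binomial (Clopper-Pearson) 95% interval of the 33.5% was 28.9% to 38.3%. It treats each gene as independent, which neighbours under the same peak are not. Replicate 2 added few genes of its own. Of its 143 genes, 135 (94.4%) were also overlapped in replicate 1, whereas 45 genes were overlapped in replicate 1 only, 8 in replicate 2 only and 215 in neither. With a peak allowed within 1 kb, 210 genes (52.1%) and 178 genes (44.2%) had one, beside 36.7% and 30.7% of other RefSeq start sites and 6.58% and 4.32% of positions. No peak lay within 1 kb in either list for 181 genes.

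Among other short RNA genes the share covered was lower. Genes of snRNAs, which build the spliceosome, were overlapped in 54 (5.42%) and 43 (4.31%) of 997 cases. Genes of snoRNAs, which guide RNA modification, were overlapped in 91 (6.84%) and 59 (4.44%) of 1330 cases, and miRNA genes in 243 (19.8%) and 141 (11.5%) of 1228 cases. Of 62 genes of biotype rRNA, 1 (1.61%) was overlapped in each replicate and 0 in both. Start sites of protein-coding genes were covered in 54.4% and 46% of 21774 cases. By these shares the tRNA genes lay between the other RNA genes listed and the coding start sites in both lists. The measures are not alike, since the RNA genes were read over the gene and the coding genes at their start sites. No test of these differences was made, since genes are not replicates.

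The strongest peak over a tRNA gene lay at n-TEttc4, a glutamate tRNA gene 400 bp from the start of Wbp4. Its q score, the caller's adjusted p-value on a −10log10 scale, was 785 in replicate 1 and 261 in replicate 2, and the log2 ratio of ChIP over input was 5.07 and 3.27. This peak stood at the 99.85th and 99.44th percentile of q score in its lists, and it was among the strongest of all peaks in both. The next peak covered n-TWcca2 and n-TDgtc16 together, with q scores of 341 and 197, 9793 bp from the nearest coding start. At n-TRtct2, an arginine tRNA gene 18534 bp from a coding start, the q scores were 412 and 156 and the log2 ratios 4.83 and 2.90. Both of these loci were thus well away from any coding promoter.

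The tyrosine and alanine genes n-TYgta9 and n-TAagc15 shared a peak 265 bp from the start of Agbl5, with q scores of 306 and 185. The serine gene n-TScga2 lay 691 bp from the start of Smarcc2, with q scores of 364 and 153. The threonine gene n-TTcgt3 was the most remote of the 10 strongest sets, 113438 bp from the start of Rab11fip4, yet its q scores were 360 and 147 and its log2 ratios 3.95 and 2.79. The other 4 of the 10 were n-TIaat16 (q scores 497 and 121), n-TRtcg5 near Polg (300 and 153), n-TFgaa3 with n-TNgtt7 near Ndufs7 (271 and 160) and n-TCgca51 near Lasp1 (353 and 130). Of the 10 sets, 7 were within 1 kb of a coding start, so the promoter of a coding gene and the tRNA gene shared the peak. In all 10, replicate 1 had the higher q score.

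**Figure D1:**
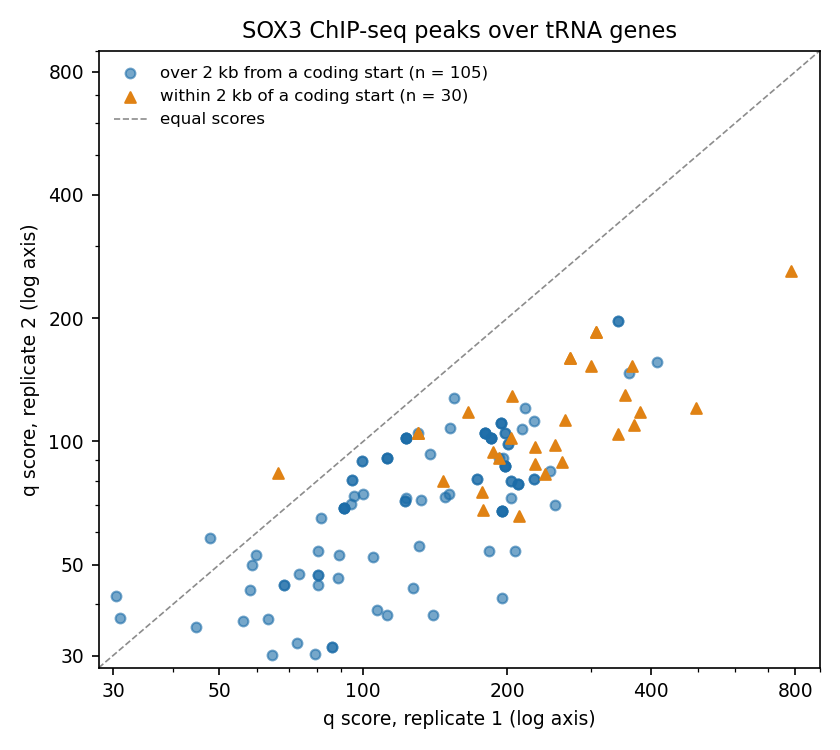
The q score of the highest-scoring overlapping peak in replicate 1 (x axis) and replicate 2 (y axis), both log axes without unit, for the 135 tRNA genes overlapped in both replicates. Triangles are the 30 genes within 2 kb of a coding start and circles the 105 others, which overlie each other where genes share a peak. Nearly all points lie below the dashed line of equal scores, and n-TEttc4 is the point at the upper right.

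Over the 94 pairs of peaks behind those 135 genes, the q score was higher in replicate 1 in 90 and the log2 ratio in 86. The median log2 ratio was 3.34 in replicate 1 and 2.45 in replicate 2. For the q score, Spearman's rho between the replicates was 0.772 and Pearson's r 0.818 over the 94 pairs. For the log2 ratio, the order of the loci was less alike, with a rho of 0.332. These are descriptions across loci of the same tissue. Genes overlapped in replicate 1 only had a lower median q score there, 59 over 45 genes, against 180 over the 135 genes overlapped in both.

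Peaks over tRNA genes were then compared with the other peaks of each list, counting each peak once. In replicate 1, 121 peaks covered the 180 genes, and 33 of them held 2 or more tRNA genes, up to 7. In replicate 2, 101 peaks covered the 143 genes, 26 of them with 2 or more. The median q score was 122 over the tRNA gene peaks and 41.4 over all other peaks in replicate 1, and 74.6 and 39.5 in replicate 2. Peaks over tRNA genes thus scored above the bulk of both lists.

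This held away from coding promoters. For the 90 tRNA gene peaks over 2 kb from a coding start the median q score was 88.8 in replicate 1, against 37.9 for the 43133 other peaks at that distance. For the 72 such peaks of replicate 2 it was 68.2, against 36.5 for 25921. Of the tRNA gene peaks at that distance, 18.9% and 15.3% were in the top 10% of their list by q score, where 0.798% and 0.984% of the other distant peaks were. The log2 ratio did not follow. Its median at that distance was 3.02 against 2.80 in replicate 1, but 2.33 against 2.80 in replicate 2. The distant tRNA gene peaks were also wider, with a median of 1392 bp against 627 bp and of 1163 bp against 586 bp, and the part of width in the q score was not tested.

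Where a distant peak held 1 tRNA gene only, the gene lay a median of 264 bp from the centre of the peak in replicate 1 (64 genes, median width 1236 bp) and 211 bp in replicate 2 (52 genes, 970 bp). It lay nearer to the centre of the peak than to its edge in 38 of 64 cases (59.4%) and in 28 of 52 (53.8%). The genes were therefore spread over the peaks rather than held at their centres.

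The distance to the nearest protein-coding start site, that is, the 5′ end of a curated mRNA, had a median of 16024 bp over the 403 genes. Within 2 kb of a coding start, 32 of 41 tRNA genes (78%) were overlapped in replicate 1 and 30 (73.2%) in replicate 2. Beyond 2 kb, 148 of 362 (40.9%) and 113 (31.2%) were. The difference was 39.6 ± 3.39 percentage points (SD, n = 2). Both replicates were read at the same genes, so this SD gives no spread between genes. Positions at the same distance from coding starts differed as well, with 28.5% and 20.1% of positions within 2 kb and 1.58% and 0.825% beyond. Relative to those, tRNA genes were overlapped 2.74 and 3.64 times as often near coding starts and 25.8 and 37.8 times as often far from them.

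Between 2 and 10 kb from a coding start, 68 (74.7%) and 50 (54.9%) of 91 tRNA genes were overlapped, against 5.16% and 2.45% of positions. Between 10 and 50 kb the shares were 39.7% and 33% of 179 genes, against 2.08% and 1.1% of positions. Beyond 50 kb they were 9.78% and 4.35% of 92 genes, against 0.527% and 0.316%. Without the cysteine genes of chromosome 6, many of them repeated, 50 genes remained beyond 50 kb. Of these 50, 16% and 8% were overlapped, against 0.518% and 0.301% of positions. The shares of genes and of positions thus both fell with distance, and in each interval the share of genes was the higher. Of the 362 distant genes, 300 had no start of any other RefSeq gene within 2 kb either, and 111 (37%) and 82 (27.3%) of these were overlapped.

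**Figure D2:**
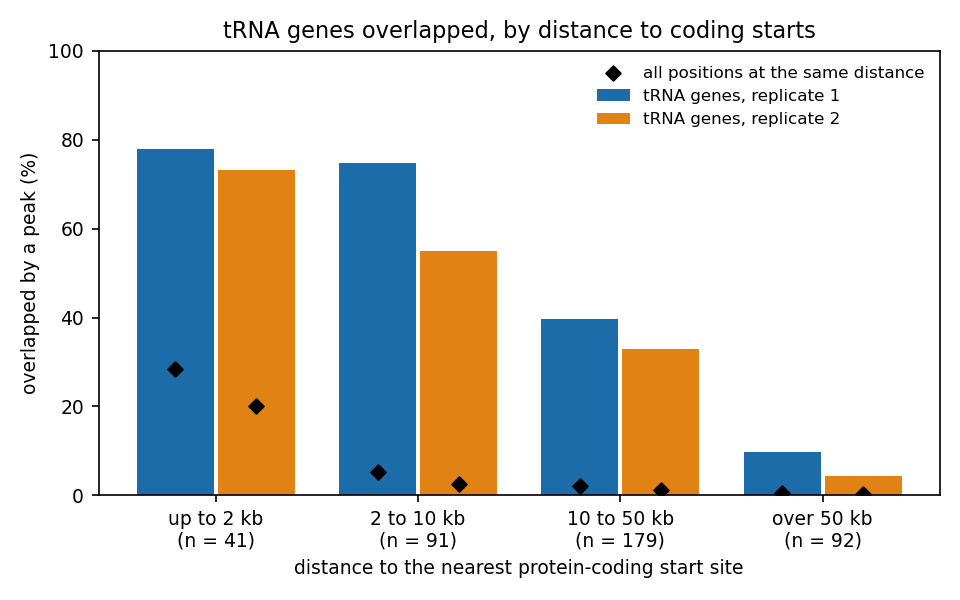
Share of tRNA genes overlapped by a SOX3 ChIP-seq peak (y axis, %) by distance to the nearest protein-coding start site (x axis), as bars for each replicate, with black diamonds for the share of all positions at that distance. Bars fall from 78% and 73.2% within 2 kb to 9.78% and 4.35% beyond 50 kb, each above its diamond. Without the cysteine genes of chromosome 6 the shares beyond 50 kb were 16% and 8%.

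The base composition around the gene varied with overlap. CpG dinucleotides, the sites of DNA methylation in mammals, were counted in the 1 kb centred on each gene. Their median was 43 around the 135 genes overlapped in both replicates and 16 around the 215 overlapped in neither. Among genes over 2 kb from a coding start the medians were 42 and 16. With 40 or more CpG, 73 (83%) and 66 (75%) of 88 distant genes were overlapped, with 20 to 39, 70 (49%) and 45 (31.5%) of 143, and with under 20, 5 and 2 of 131. Of the 131 distant genes with under 20 CpG, 49 were cysteine genes of chromosome 6. Of the 135 genes overlapped in both replicates, 90 had 40 or more CpG.

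Other 1 kb windows of the genome, over 2 kb from coding starts and away from tRNA genes, were counted in the same way. With 40 or more CpG, 27.9% and 17.6% of 7411 windows had a peak over their centre, and with 20 to 39, 9.47% and 4.6% of 93759. The tRNA genes were above these windows at both CpG counts. With 10 to 19 CpG, 2 and 1 of 64 genes (3.12% and 1.56%) were overlapped, against 3.64% and 1.81% of windows. With 5 to 9 CpG, 3 and 1 of 32 genes (9.38% and 3.12%) were overlapped, against 0.779% and 0.425% of windows. Counts this small give no order of genes and windows at low CpG counts. Of the 35 distant genes with 4 or fewer CpG none was overlapped in either list. The part of CpG content in the overlap was not tested.

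**Figure D3:**
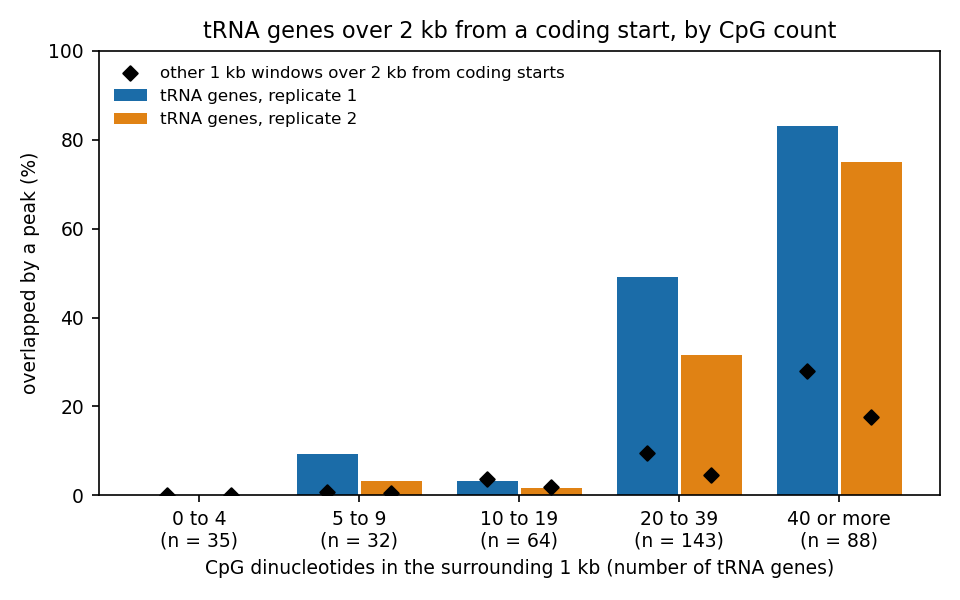
Share overlapped by a peak (y axis, %) by number of CpG in the surrounding 1 kb (x axis), for the 362 tRNA genes over 2 kb from a coding start, as bars for each replicate. Black diamonds are other 1 kb windows of the genome at that distance; with 40 or more CpG the bars stand at 83% and 75% and the diamonds at 27.9% and 17.6%.

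The run of thymines that ends Pol III transcription was searched as TTTT in the 50 bp after each gene. It was found at 358 of the 403 genes, and 173 (48.3%) and 139 (38.8%) of these were overlapped. Of the 45 genes without it, 7 (15.6%) and 4 (8.89%) were. Among the 371 genes with the B box letters 171 (46.1%) and 134 (36.1%) were overlapped, and among the 32 without them 9 and 9 (28.1% each). The differences, 18 and 7.99 percentage points for the B box, averaged 13 ± 7.05 (SD, n = 2). The B box letters were least frequent among methionine genes (7 of 16) and alanine genes (23 of 33). The part of amino acid, CpG count and repeated sequence in the contrasts of B box and thymine run was not tested.

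Short SOX-type motifs were no more frequent at tRNA genes than beside them. AACAAT, searched on both strands of the 300 bp around each gene, was found at 61 of 403 genes (15.1%) and in 137 of 806 windows of that size 1 kb away (17%). ACAAAG was found at 80 genes (19.9%) and in 192 windows (23.8%). AACAAT was found at 14.8% of the genes overlapped in both replicates and at 15.3% of those overlapped in neither, and ACAAAG at 20% of each. Absence of these letters from a window says nothing of the factor.

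Copies that share a mature sequence allow occupied and unoccupied genes of the same tRNA to be set side by side. The 403 genes held 214 distinct mature sequences, of which 155 had 1 copy and 59 had 2 or more, 248 genes in all. Of the 59 families, 24 had copies overlapped in both replicates beside copies overlapped in neither. In 7 families each copy was overlapped in both replicates, and in 11 none was in either. In all, 84 of the 214 sequences had at least 1 copy overlapped in both. Within the 24 mixed families the overlapped copies had the higher median CpG count in 20 and were nearer a coding start in 18, with medians over families of 41.2 CpG against 25.

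The largest mixed family was an aspartate tRNA with 13 copies. Overlapped in both replicates were n-TDgtc9 (q scores 198 and 87.2), n-TDgtc8 (187 and 94.1), n-TDgtc5 (91.4 and 68.9) and n-TDgtc14 (68.4 and 44.7). Overlapped in replicate 1 only were n-TDgtc15 (88.4) and n-TDgtc12 (64.5), and the other 7 copies had no peak over them in either list. Among those 7, the copies n-TDgtc3, n-TDgtc6 and n-TDgtc7 lay in a repeated array on chromosome 1, with 109 to 110 CpG around each.

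Repeated copies limit what a peak list can show, because the authors placed reads that fitted several sites at 1 of them at random. For each gene with 100 bp either side, the share of 50-base stretches found once in the genome was computed, with a median of 88.3%. Of the 320 genes with 80% or more such stretches, 173 (54.1%) and 140 (43.8%) were overlapped, and of the 83 with fewer, 7 (8.43%) and 3 (3.61%). The 3 aspartate copies named above had 21.5%, 0% and 0%. Among distant genes with 40 or more CpG, 68 and 63 of the 71 with 80% or more were overlapped (95.8% and 88.7%), and 5 and 3 of the 17 with fewer. The lists hold no read counts, so lack of a peak at a repeated gene cannot be told apart from few reads placed there. The part of read placement in these shares was not tested.

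By amino acid, each of the 20 had at least 3 genes overlapped in both replicates. Proline had the highest share overlapped in both replicates, 10 of 16 genes (62.5%, exact 95% interval 35.4% to 84.8%), with 11 genes in replicate 1 and 12 in replicate 2. Leucine followed with 14 of 25 (56%) and histidine with 6 of 11 (54.5%). This order changed with the count used. In replicate 1 alone leucine stood above proline (76% against 68.8%). Leucine was also above proline among genes with 80% or more 50-base stretches found once in the genome (63.6% against 62.5%), and tyrosine was above it with 1 value per distinct sequence (80% against 66.7%). Arginine, serine, tryptophan and tyrosine stood at 50%. The lowest shares were those of cysteine, with 3 of 57 (5.26%, interval 1.1% to 14.6%), lysine, with 4 of 26 (15.4%), and alanine, with 6 of 33 (18.2%). These intervals treat each gene as independent, which neighbours under the same peak and identical copies are not. Cysteine and proline were also picked from these same shares, so the intervals do not separate the amino acids.

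The replicates ordered several amino acids differently. Lysine genes were overlapped in 10 of 26 cases (38.5%) in replicate 1 and in 4 (15.4%) in replicate 2, and asparagine genes in 8 and 4 of 13. For isoleucine and proline replicate 2 had the larger count, with 8 against 7 and 12 against 11. Of the 48 anticodons, 45 had at least 1 gene overlapped in both replicates. The 3 without were the glycine anticodon ACC, the histidine anticodon ATG and the serine anticodon GGA, each with 1 gene in the annotation.

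**Figure D4:**
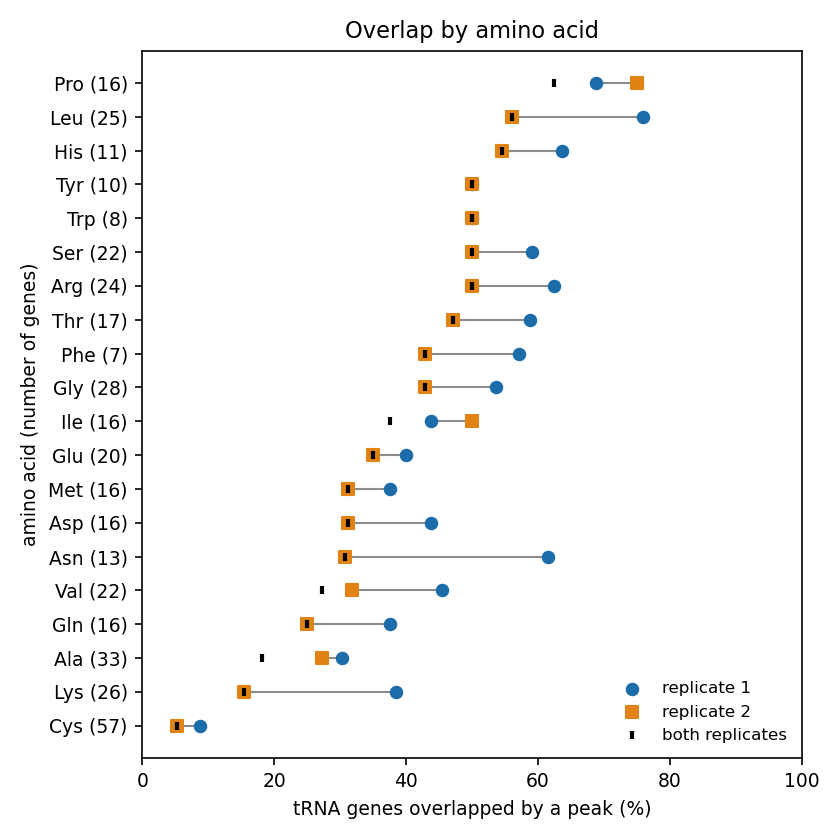
Share of tRNA genes overlapped by a SOX3 ChIP-seq peak (x axis, %) for each amino acid (y axis, number of genes in brackets), with circles for replicate 1, squares for replicate 2 and short bars for both replicates. Cysteine is lowest at 8.77% and 5.26%, and proline is highest in both replicates together at 62.5%.

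Cysteine tRNA genes were split by place. On chromosome 6, 49 of them lay within 385 kb (chr6:47978997-48363603), and 1 and 0 of these were overlapped, against 1.93% and 1.22% of positions of that chromosome. Beyond 2 kb from coding starts, where all 49 lay, the shares of positions were 1.2% and 0.701%. The exception, n-TCgca48, had a q score of 31.1 in replicate 1, just above the list's threshold of 30. Of the 8 cysteine genes elsewhere, 4 and 3 were overlapped. Among these, n-TCgca51 had q scores of 353 and 130, and n-TCgca54 and n-TCgca55 shared a peak with 192 and 91.3. The sequences of n-TCgca37 (chr6:48133937-48134008, plus strand), whose mature sequence 29 genes share, and of n-TCgca51 (chr11:97798906-97798977, minus strand) and n-TCgca55 (chr11:97988246-97988317, minus strand) are shown because they hold the same B box letters.
n-TCgca37: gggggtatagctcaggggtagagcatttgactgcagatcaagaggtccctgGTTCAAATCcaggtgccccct
n-TCgca51: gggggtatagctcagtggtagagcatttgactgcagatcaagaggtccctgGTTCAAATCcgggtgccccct
n-TCgca55: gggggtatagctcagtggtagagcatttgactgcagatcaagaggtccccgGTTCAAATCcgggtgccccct

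Over their 72 bases, n-TCgca51 differed from n-TCgca37 at 2 positions and n-TCgca55 at 3. Of the 29 genes with the sequence of n-TCgca37, none was overlapped in either list, n-TCgca47 on chromosome 9 included. The surroundings differed as well. The 49 chromosome 6 genes had a median of 3 CpG in the surrounding 1 kb (range 0 to 15), a median distance of 85808 bp to a coding start and a median of 66.4% unique 50-base stretches, whereas n-TCgca51 had 43 CpG, 588 bp and 90.6%. Of the genes elsewhere with no peak over them, n-TCgca56 had 20 CpG, 2422 bp and 87.4%. The values of n-TCgca18, also without such a peak, were 6 CpG, 3216 bp and 90.6%. The part of the surroundings was not tested. The B box letters were present in 47 of the 49 chromosome 6 genes. Without these 49 genes, 179 of 354 tRNA genes (50.6%) and 143 (40.4%) were overlapped.

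Genomic clusters were formed by chaining tRNA genes up to 10 kb apart. This gave 64 clusters with 293 genes and left 110 genes alone. Clustered genes were overlapped in 127 (43.3%) and 94 (32.1%) cases and lone genes in 53 (48.2%) and 49 (44.5%). The difference of −8.65 ± 5.39 percentage points (SD, n = 2) turned with the processing. It was 0.767 points without genes near coding starts and 8.42 points with chaining at up to 2 kb, so no direction is given. Every gene was overlapped in both replicates in 14 clusters, none in either in 18, and 32 were mixed.

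Of the 22 clusters with 5 or more genes, 2 had every gene overlapped in both replicates. They were a cluster of 5 on chromosome 1 (chr1:171101838-171111515, with leucine, aspartate, glycine, glutamate and valine genes) and 1 of 5 on chromosome 3 (chr3:96497781-96501518, with asparagine, lysine, histidine, glycine and glutamate genes). In the second, a single peak of replicate 1 with a q score of 195 covered all 5 genes. On chromosome 11, 6 of 7 genes in each of 2 clusters were overlapped in both replicates (chr11:69037003-69041897 and chr11:69110465-69125248). In the first of them the highest q scores were 198 and 105, in the second 204 and 102.

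Neighbouring clusters on chromosome 1 differed. Beside the cluster with 5 of 5, a repeated array of 15 aspartate, glutamate, glycine and leucine genes (chr1:171064164-171081946) had 3 genes overlapped in replicate 1 and 0 in replicate 2, and a cluster of 5 before it had 4 and 3. The array had a median of 79 CpG around its genes and a median of 0% unique 50-base stretches, while both neighbours were at 87.6% and 87.4%. A cluster of 5 asparagine and histidine genes on chromosome 3 (chr3:96451425-96464043), with 1 gene overlapped in each replicate, also had a median of 0%.

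Chromosome 13 held 105 tRNA genes, of which 27 (25.7%) and 19 (18.1%) were overlapped and 14 (13.3%) in both. Its 8 clusters of 5 or more genes had from 0 to 6 genes overlapped in replicate 1 and from 0 to 3 in replicate 2. Unlike in the chromosome 1 array, the median share of unique 50-base stretches was 87.9% or more in each of the 8, and the median CpG count 21.5 to 27. By contrast, 39 (83%) and 33 (70.2%) of the 47 genes of chromosome 11 were overlapped, and 11 and 10 of the 12 of chromosome 14. The background differed too. The shares of positions were 1.76% and 1.09% on chromosome 13, 5.69% and 3.25% on chromosome 11, and 1.61% and 1.02% on chromosome 14. Within 2 kb of a coding start lay 3 of the 105 genes, 7 of the 47 and 4 of the 12. On chromosome X the count was 1 and 0 of 17, against 0.48% and 0.244% of positions. With positions matched to each gene as within or beyond 2 kb of a coding start, the shares were 1.82% and 0.994%. The exception, n-TVtac3, had a q score of 31.8 and lay 1831 bp from a coding start. The X chromosome genes had a median of 14 CpG and of 61% unique stretches.

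**Figure D5:**
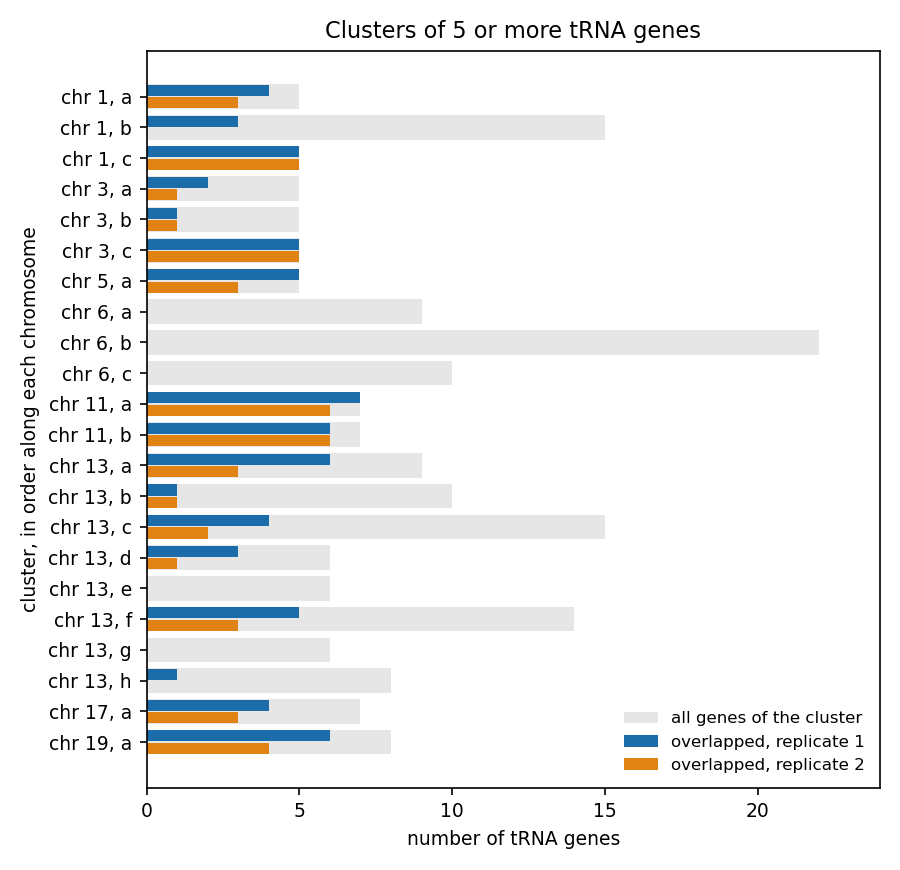
Number of tRNA genes (x axis) in each of the 22 clusters of 5 or more genes (y axis, lettered in order along each chromosome), in grey, with the genes overlapped in replicate 1 and replicate 2 as coloured bars. The 3 clusters of chromosome 6, with 9, 22 and 10 genes, have none in either list, and the third cluster of chromosome 1 and the third of chromosome 3 have all 5 genes in both.

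ChIP-nexus peaks were absent from tRNA genes. Of 110 peaks of replicate 1 and 18 of replicate 2 on the mouse genome, 0 overlapped a tRNA gene. Within 1 kb, 2 peaks of replicate 1 lay beside asparagine tRNA genes of the repetitive chromosome 3 cluster. They were 585 bp from n-TNgtt11, with 16.4-fold enrichment, and 560 bp from n-TNgtt13, with 9.67-fold, and neither gene was overlapped in the ChIP-seq lists. Both were named after their values were seen. The study reports far fewer unique reads for SOX3 ChIP-nexus than for SOX3 ChIP-seq. Lists this short cover little of the genome, so 0 overlaps do not show that SOX3 ChIP-nexus signal is absent there.

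Genes of the Pol III machinery were read at their promoters, as a peak within 2 kb of a start site. Of all 21000 protein-coding genes, 57.9% had such a peak in both replicates, and 39.5% had one with a q score above 60 in both. All 18 genes of Pol III subunits had one in both replicates, 16 of them with a q score above 60 in both. The 18 include genes named after other polymerases, among them Polr1c, Polr1d and Polr2e. For Polr3a, which encodes the largest subunit, the q scores were 142 and 65.7, and for Polr3d 452 and 164. Of the 11 genes of Pol III factors, all had a peak in both replicates, also with a q score above 60. Brf1, a TFIIIB subunit, had 473 and 142, and Maf1, a Pol III repressor, 274 and 150. Gtf3c6, a TFIIIC subunit, had the highest values in the list, 2087 and 1341, with log2 ratios of 6.34 and 5.35. These genes were named after their values were seen, and many are active in most cells.

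Among 17 genes of tRNA maturation, 16 had a promoter peak in both replicates and 9 had a q score above 60 in both, beside the 57.9% and 39.5% of all protein-coding genes. Xpot, the exporter of tRNAs, had 319 and 108, and Ssb, whose product La binds the ends of new Pol III transcripts, 297 and 131. Of 8 other genes that Pol III transcribes, 7 were found in the annotation by name, and 6 of these had a peak within 2 kb in both replicates. Rpph1, the RNA of the enzyme that trims the 5′ end of tRNAs, had 277 and 131, and Rn7sk 260 and 126. Vaultrc5 was close to the threshold in replicate 2, with 80.7 and 30.1, and Rny3 had no peak in either list. A peak within 2 kb of such an RNA gene can also belong to a neighbouring gene. No share of all noncoding genes within 2 kb is given beside the 6 of 7. By the stricter rule of overlap, 1 of 62 genes of biotype rRNA was covered in each replicate.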

How the data were processed

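Peaks were those the authors deposited for SOX3 ChIP-seq and ChIP-nexus, called per replicate. For ChIP-seq the authors aligned reads to mm10 with Novoalign, which placed reads fitting several sites at random, removed duplicates with Picard and called peaks with USeq against input, kept above a q score of 30. The deposited lists have no header, so the columns (p score and q score, −10log10 values, and a log2 ratio over input) are inferred from the caller's layout and the values. The deposited ChIP-nexus lists, in MACS format (version 2.1.1 per the labels), give fold enrichment, −log10 p, −log10 q and a score. Their 1 phage region each was left out. The study's methods name a removal of blacklisted regions after replicates were merged, without saying whether these per-replicate lists had it.

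Members, lists and tests were chosen with earlier results of these data known. Overlaps were computed in Python 3.11 and checked against bedtools 2.31.1 (equal counts) and tested on simulated data. Placement shares were counted over all positions. Named were the 10 strongest sets overlapped in both replicates by mean percentile of q score, clusters of 5 or more genes, genes in ChIP-nexus peaks, and the amino acids with the highest and lowest shares. Alternatives covered score threshold, list length, overlap rule, windows, gene sets and replicates. Sequences and annotation were from RefSeq, GRCm38. The values of 1 gene of the tRNA maturation list are not reported here.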

Additional observations from a re-analysis of the deposited data

How the results depend on the processing

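No paired analysis was possible because the results come from no test and only 1 group of 2 ChIP-seq replicates was analysed. Leaving aside single replicates, 32 of 55 alternative shares, differences, spans and median q scores stayed within 1 SD of the replicates (for the share overlapped in both, within its binomial interval). With a q score above 60, 31.3% of tRNA genes were overlapped, 34.4% had a peak within 1 kb, 25.6% were overlapped in both replicates, and the difference near minus far from coding starts was 48 points. With sequences that no other tRNA gene holds, these were 32.9%, 40.6%, 27.7% and 63.7 points, and clustered minus lone was −0.775. With at least 80% unique 50-base stretches, an alternative chosen after seeing the data, they were 48.9%, 58.1%, 41.2%, 34.8 points and −3.05 points. Without the cysteine genes of chromosome 6, also chosen afterwards, the share within 1 kb was 54.4%, near minus far 34.1 points and clustered minus lone −2.51 points. The span between the highest and lowest amino acid, 68.5 points as a mean of the replicates, was 61 and 52.7 points under these last 2. Clustered minus lone turned to 0.767 points without genes within 2 kb of a coding start and to 8.42 points with chaining at up to 2 kb. A window of 5 kb gave 57.3%, and near within 1 kb 44.7 points. Leaving out a replicate gave 35.5% to 44.7% overlapped, 44.2% to 52.1% within 1 kb, 37.2 to 42 points, −12.5 to −4.84 points, median q scores of 74.6 to 122 and a span of 67.2 to 69.7 points. For ChIP-nexus, 0 tRNA genes were overlapped and 2 lay within 1 kb of a peak. Of the listed Pol III genes and machinery, 51 had a peak in both replicates and 40 with a q score above 60. The cause of these shifts was not tested. The lists hold no read counts per peak, and peaks at identical copies cannot be assigned with certainty.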

Other observations

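Genes with an intron and genes inside coding genes were not set apart above. Of the 22 tRNA genes with an intron, 13 (59.1%) and 15 (68.2%) were overlapped, and 13 in both replicates. Over all 403 tRNA genes the shares were 44.7% and 35.5%, and 33.5% in both. Of the 34 that lay within a protein-coding gene, 15 (44.1%) and 8 (23.5%) were overlapped, beside 165 (44.7%) and 135 (36.6%) of the 369 outside coding genes. The 9 tRNA genes within 10 kb of a histone gene had 6 (66.7%) and 3 (33.3%) overlapped, beside 44.2% and 35.5% of the 394 others. The replicates thus differed in direction. No peak in either list covered 9 of the tRNA genes within 2 kb of a coding start, with a median of 23 CpG in the surrounding 1 kb, against 49.5 for the 30 such genes overlapped in both.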
